A study of Homo sapiens with 4 samples.

Results

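The citric acid cycle genes described here are 9 genes for enzymes of the cycle, SUCLG1, SUCLG2, SUCLA2, CS, IDH3A, OGDH, SDHA, FH and MDH2. They were taken from the cycle by name, around SUCLG2, which was picked because its level was far lower with both miR-124 duplexes on these arrays. Of the 9 genes, 7 were measured by 1 or more probe sets that map to no other gene. These are 11 probe sets in all, out of 19798 genes and 35184 probe sets named in the same way. IDH3A and FH had none in the annotation used, and they were not analysed here. SUCLG2 was chosen by its differences from mock, so its values are a description with no test. The other genes were listed with these results known as well, and their calls are read only against the share of all genes called.

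The citric acid cycle runs in mitochondria, where it oxidizes the acetyl group of acetyl-CoA to carbon dioxide and feeds electrons to the respiratory chain. Succinate-CoA ligase is the step of the cycle that makes a nucleoside triphosphate directly, while it turns succinyl-CoA into succinate. The enzyme is a pair of an alpha subunit, SUCLG1, and 1 of 2 alternative beta subunits. With SUCLG2 the enzyme makes GTP, and with SUCLA2 it makes ATP. miR-124 is a neuronal microRNA, and microRNAs reduce the messenger RNAs that match their seed.

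All arrays are of HCT-116 dicer- cells, a line from a human colon carcinoma with altered Dicer (the nuclease that matures microRNAs), taken 24 h after transfection. One array came from transfection with the miR-124 duplex whose guide is segmented (G10.12/P, 10 nM), one from the duplex whose guide is unbroken, called intact (G/P, 10 nM), and 2 from mock transfection. The study asked whether a segmented guide still acts through its seed, and both duplexes were set against mock. Every group is the same altered line, and cells with unaltered Dicer were not analysed here.

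The brightest of 5 probe sets of DICER1 read log2 10.80 with the segmented duplex and 11.13 with the intact duplex, against 11.21 and 11.28 on the mock arrays. What these readings say of the Dicer alteration was not tested. Of 6 measured epithelial and colon markers, 4 lay above the median level of all genes (log2 6.76) and the colon markers CEACAM5 and LGALS4 lay far below it, at no more than 3.68 on any array. Of 12 markers of blood, endothelium, fibroblast, glia and liver, COL1A1, MBP and ALB lay above the median. The summed intensity of all 12 was 3283 with the segmented duplex and 3623 with the intact duplex, against 3052 and 2740 on the mock arrays. COL1A1 alone read 592 with the segmented and 868 with the intact duplex, against 419 and 340 on the mock arrays. Not every marker moved that way, and the dim CD3E lay below both mock arrays with each duplex. The part of these markers in the results was not tested. The number of arrays limits every value. limma assumes that each lone duplex array varies like the mock pair, and the labels do not say whether the 2 mock samples were separate cultures, so the p-values cover only their spread, perhaps a technical one. Fewer cells and less RNA per cell cannot be told apart in such bulk samples.

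SUCLG2, the GTP-forming beta subunit, was the gene of the cycle that stood far below mock with both duplexes. Its intensity was 124 with the segmented duplex and 68.3 with the intact duplex, against 742 and 775 on the mock arrays. On the log2 scale these are 6.95 and 6.09, against 9.54 and 9.60 in mock cells. Both duplex arrays lay below both mock arrays, with the intact duplex lowest, and the mock arrays differed by only 0.06. The segmented duplex left 16.3% of the mean mock level, a log2 difference of -2.62 (6.14-fold lower). The intact duplex left 9.0%, a difference of -3.47 (11.1-fold lower). Among 19798 genes this was the 7th lowest difference from mock with the segmented duplex and the 10th lowest with the intact duplex. SUCLG2 has 1 probe set, so no other probe set of the gene bears on the value.

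**Figure D1:**
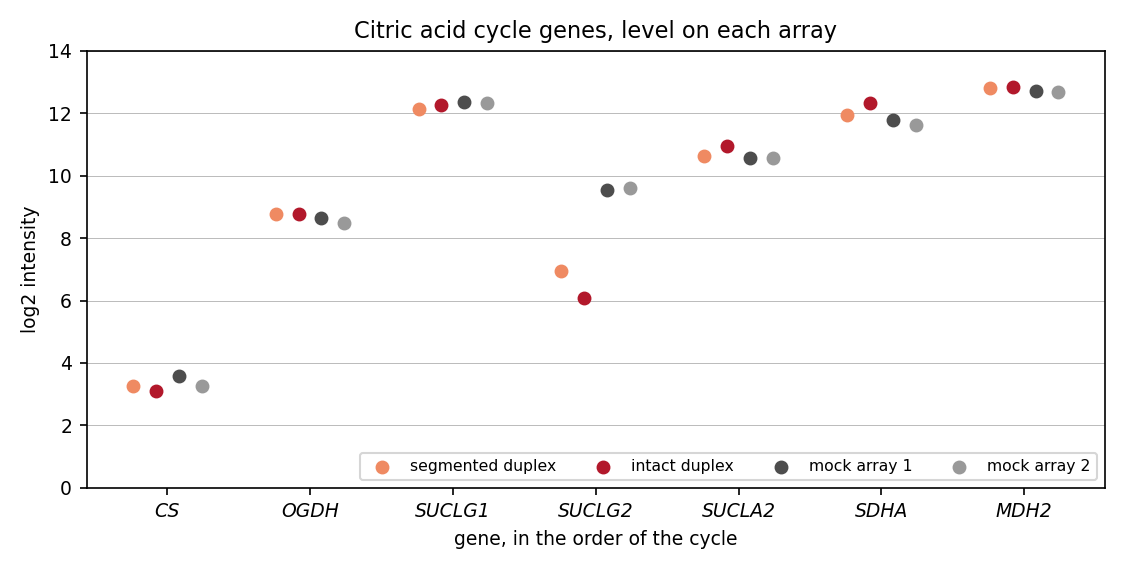
Log2 intensity (vertical axis) of the 7 measured citric acid cycle genes on each array, 1 point per array and 1 probe set per gene. SUCLG2 lies at 6.95 and 6.09 on the duplex arrays against 9.54 and 9.60 on the mock arrays, while the points of each other gene lie close together; heights of different genes are readings of different probes and are not to be compared.

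SUCLG1, the alpha subunit that both forms of the ligase need, differed little from its mock level. Its log2 level was 12.13 with the segmented duplex and 12.25 with the intact duplex, against 12.37 and 12.32 on the mock arrays. Both duplex arrays lay below both mock arrays by a small margin. The difference was -0.21 with the segmented duplex (95% interval -0.56 to 0.13) and -0.09 with the intact duplex (-0.43 to 0.25). Neither passed the test (limma adjusted p = 0.349 and 0.638).

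SUCLA2, the ATP-forming beta subunit, stood above mock rather than below it. Its log2 level was 10.64 with the segmented duplex and 10.96 with the intact duplex, against 10.56 and 10.57 on the mock arrays. The intact array was the highest, and the segmented array was nearer to the mock pair than to it. The difference of 0.08 with the segmented duplex did not pass (limma adjusted p = 0.723), and its sign turned to -0.11 when each array was centered on its median. The difference of 0.39 with the intact duplex did not pass either (limma adjusted p = 0.0926). It passed in 2 other settings of the fit, with the dimmest 40% of genes left out (limma adjusted p = 0.0167) and with a trended and robust prior (limma adjusted p = 0.00187). Centering each array on its median shrank the intact difference to 0.15 (limma adjusted p = 0.421).

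Set side by side, the log2 difference from mock of SUCLG2 minus that of its partner SUCLG1 was -2.40 with the segmented duplex and -3.38 with the intact duplex. Against the alternative subunit SUCLA2 the gap of the changes was -2.70 with the segmented duplex and -3.87 with the intact duplex. A common scaling of an array cancels in these gaps, which describe unequal change within each array. They carry no test, because SUCLG2 was chosen for its change.

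Citrate synthase, CS, joins acetyl-CoA to oxaloacetate at the entry of the cycle. Its single probe set read 9.50 with the segmented duplex and 8.63 with the intact duplex, against 11.9 and 9.49 on the mock arrays, all below the median intensity of any array (42.6 to 46.3). Whether these readings lie above background was not tested, since no detection call was used, and they say little of the level of CS messenger RNA. On the log2 scale the differences from mock were -0.16 with the segmented and -0.30 with the intact duplex, both smaller in size than the 0.33 between the mock arrays. Neither difference passed (limma adjusted p = 0.635 with the segmented and 0.315 with the intact duplex).

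OGDH encodes the first component of the oxoglutarate dehydrogenase complex, which makes the succinyl-CoA that the ligase uses. The brightest of its 3 probe sets read log2 8.78 with the segmented duplex and 8.76 with the intact duplex, against 8.65 and 8.48 on the mock arrays. The differences of 0.22 with the segmented and 0.20 with the intact duplex did not pass (limma adjusted p = 0.389 and 0.37). The other probe sets disagreed. One read 5.95 and 6.26, against 6.59 and 6.95 in mock cells, for differences of -0.82 and -0.51. The dimmest one had mock arrays 0.65 apart and both duplex arrays between them. No direction can therefore be given for OGDH, and with the mean of its probe sets both differences turned negative, at -0.15 each.

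SDHA, the flavoprotein subunit of succinate dehydrogenase, which oxidizes the succinate that the ligase releases, rose with the intact duplex. Its log2 level was 11.96 with the segmented duplex and 12.32 with the intact duplex, against 11.77 and 11.63 on the mock arrays. Both duplex arrays lay above both mock arrays. The intact duplex gave a rise of 0.62 (1.53-fold, limma SE 0.13, adjusted p = 0.045), and the segmented duplex a difference of 0.26 that did not pass (limma adjusted p = 0.312). The rise with the intact duplex missed the threshold when arrays were centered on their medians (0.37, limma adjusted p = 0.0987). The second SDHA probe set read 11.16 with the segmented and 11.47 with the intact duplex, against 10.93 and 10.68 in mock cells. Its difference of 0.67 with the intact duplex had a limma adjusted p of 0.0567 over all probe sets. SDHA has near-identical pseudogene copies, and whether the probes tell them apart was not tested.

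MDH2, the mitochondrial malate dehydrogenase that closes the cycle, differed little between arrays. Its brighter probe set read log2 12.79 with the segmented duplex and 12.85 with the intact duplex, against 12.72 and 12.69 on the mock arrays. The differences of 0.09 and 0.15 did not pass (limma adjusted p = 0.685 with the segmented and 0.422 with the intact duplex), and centering each array turned them to -0.10 and -0.09. The other probe set gave 0.11 and 0.14. The 95% intervals, -0.25 to 0.43 for the segmented and -0.19 to 0.49 for the intact duplex, leave room for changes of up to about those sizes.

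**Figure D2:**
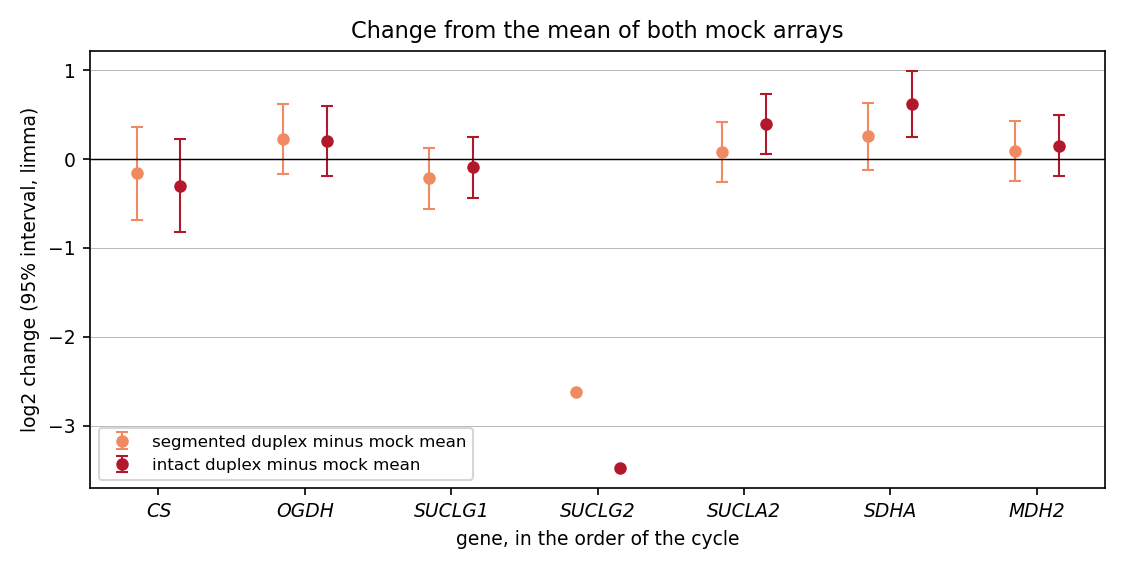
Log2 change from the mean of both mock arrays (vertical axis) for each measured gene with the segmented and the intact duplex; bars are 95% intervals from limma, which take their spread from the mock pair and the prior, and none is drawn for SUCLG2. SUCLG2 lies at -2.62 and -3.47, and the other genes lie between -0.30 and 0.62.

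**Figure D3:**
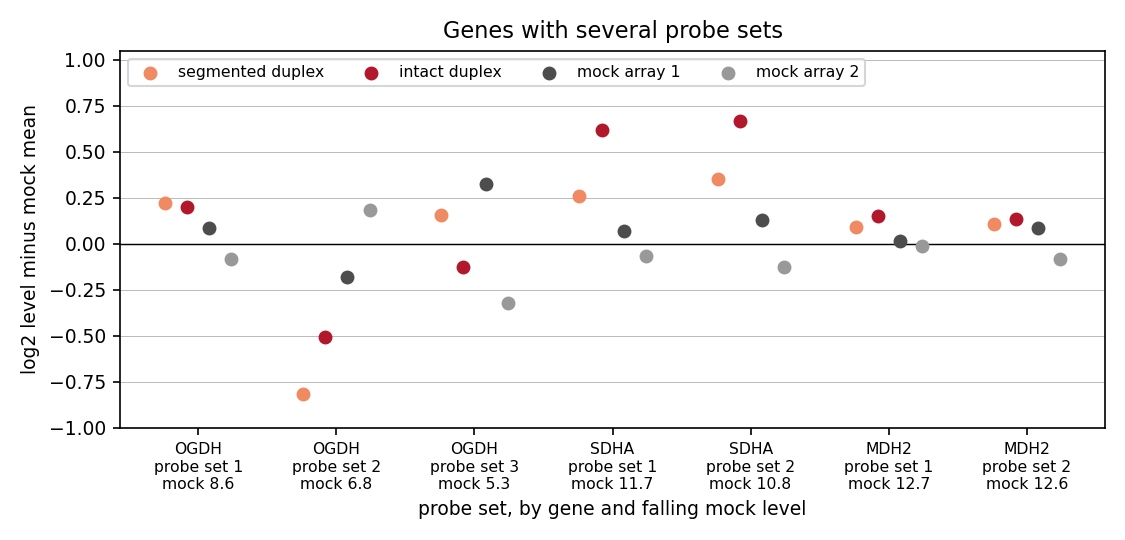
Log2 level minus the mock mean of the same probe set (vertical axis) for each probe set of OGDH, SDHA and MDH2, 1 point per array, with the mock mean of the probe set under its name. Both probe sets of SDHA and of MDH2 have the duplex arrays above the mock arrays, whereas the OGDH probe sets point different ways.

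Counted together without SUCLG2, 1 of the 6 other measured genes passed with the intact duplex (SDHA, higher), against 24.9% of all genes (10.4% lower and 14.5% higher). In the segmented comparison 0 of 6 passed in limma, against 5.99% of all genes (2.68% lower and 3.31% higher). At an unadjusted p under 0.05 it was 0 of 6 as well, against 27.4% of all genes. Of their 10 probe sets, 1 passed with the intact duplex, against 25.5% of all probe sets, and 0 with the segmented duplex, against 6.92%. With the segmented duplex 4 of the 6 genes lay above both mock arrays (42.0% of all genes) and 1 below both (37.5%). With the intact duplex 4 lay above both (44.0%) and 2 below both (39.8%). No size was asked for in these counts, and 6 genes are too few to set their shares apart from those of all genes. The 6 genes had a median change of 0.09 with the segmented and 0.18 with the intact duplex, beside medians of 0.01 and 0.02 over all genes and a median of 0.09 between mock array 1 and mock array 2 for the same 6 genes. Centering arrays on their medians moved the median of all genes by -0.19 with the segmented and by -0.24 with the intact duplex. With that scaling 1256 genes were lower and 593 higher with the segmented duplex, against 531 and 655 without it, and 4080 were lower and 1990 higher with the intact duplex, against 2064 and 2873. Small positive differences such as those of OGDH and MDH2 depend on this choice.

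The segmented and intact duplexes were given at the same dose and time, and the 7 genes gave 7 direct comparisons. SUCLG2 was 1.81-fold higher with the segmented than with the intact duplex, at 124 against 68.3 intensity units, a log2 difference of 0.86 given as a description. For the other 6 genes the difference of segmented minus intact ran from -0.36 (SDHA) to 0.14 (CS). SDHA had a 95% interval of -0.79 to 0.07 and SUCLA2, at -0.31, one of -0.70 to 0.07. OGDH stood at 0.02 (-0.43 to 0.48) and MDH2 at -0.06 (-0.45 to 0.33). Of the 6 genes, 0 passed in limma and 0 had an unadjusted p under 0.05; over all genes 0 of 19798 passed (0%), and 3273 (16.5%) had an unadjusted p under 0.05. These intervals do not show that the duplexes act alike on any of the genes. With the trended and robust prior SDHA passed this comparison (limma adjusted p = 0.0124).

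Genes whose values ran most like those of SUCLG2 were sought among the 9899 genes above the median mock level, by the Euclidean distance over the 4 arrays after subtracting each gene's mock mean. The nearest 5 were ATP6V0E1 of the vacuolar proton pump (distance 0.26), ERVMER34-1, a retroviral envelope gene (0.35), STOM, which encodes the membrane protein stomatin (0.36), ADI1 of methionine salvage (0.38) and VAMP3, a vesicle fusion gene (0.42). ATP6V0E1 read log2 8.64 with the segmented and 7.92 with the intact duplex, against 11.33 and 11.60 in mock cells. Its differences from mock were -2.83 and -3.55, beside -2.62 and -3.47 for SUCLG2. For STOM they were -2.26 and -3.50, and for VAMP3 -2.73 and -3.08, each from the brightest probe set. With the mean of all probe sets they were smaller in size, -1.58 and -2.35 for STOM and -2.01 and -2.48 for VAMP3. One of the 4 probe sets of STOM passed with neither duplex, at -0.57 and -0.49 (limma adjusted p = 0.263 and 0.254 over all probe sets). The likeness rests on 4 arrays in 3 groups, and it was sought for the large differences that SUCLG2 was chosen for. No citric acid cycle gene was among the 5.

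Other subunits of the cycle's enzymes were taken as a list of 11 genes, of which 7 had a probe set of their own. None passed in limma for the segmented duplex (0 of 7, against 5.99% of all genes), and the median change was 0.13. At an unadjusted p under 0.05 there were 3 of 7, against 27.4% of all genes. The intact duplex gave 1 fall and 1 rise, against 24.9% of all genes called. The 5 other genes did not pass, and the median change was 0.30. SDHD, a membrane anchor subunit of succinate dehydrogenase, fell with the intact duplex. It read log2 10.25 with the segmented and 9.26 with the intact duplex, against 10.81 and 11.07 in mock cells. The change with the intact duplex was -1.68 (limma adjusted p = 0.0108), and the difference of -0.69 with the segmented duplex did not pass (0.097). SDHC, the other anchor subunit, did not pass in the brightest of its 3 probe sets, at 0.13 with the segmented and 0.30 with the intact duplex. Its other probe sets are not shown, so no direction is given for SDHC. SDHA stood above mock and SDHD below it with the intact duplex, so the measured subunits of this enzyme did not all go one way. SDHB was not analysed here, and SDHD too has pseudogene copies.

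IDH2, the mitochondrial NADP-dependent isocitrate dehydrogenase, rose with the intact duplex. It read log2 8.36 with the segmented and 8.47 with the intact duplex, against 7.77 and 7.63 in mock cells, and the rise was 0.77 (limma adjusted p = 0.0283). The segmented difference of 0.66 did not pass (0.0765). OGDHL, a relative of OGDH, stood at 0.69 and 0.62 without passing. DLD, the dihydrolipoyl dehydrogenase shared by the oxoglutarate and pyruvate complexes, stood at 0.33 with the segmented and 0.44 with the intact duplex without passing, and 1 of its 2 probe sets was on the other side of 0 with the intact duplex. The subunits IDH3B and IDH3G of the NAD-dependent enzyme stood at 0.00 each with the segmented duplex and at 0.21 and 0.15 with the intact one, without passing.

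Pyruvate entry and the assembly of succinate dehydrogenase were covered by 18 genes, 17 of them measured. With the segmented duplex 2 rose, 0 fell and 15 did not pass (median 0.17), against 5.99% of all genes called. The intact duplex gave 3 rises and 2 falls, and 12 did not pass (median 0.11), against 24.9% of all genes called. PDK4, a kinase that switches off pyruvate dehydrogenase, rose with both. It read log2 7.92 with the segmented and 8.50 with the intact duplex, against 6.16 and 6.25 in mock cells, and both duplex arrays lay well above both mock arrays. The rises were 1.71 (limma adjusted p = 0.0349) and 2.29 (0.00822). SDHAF4, an assembly factor for succinate dehydrogenase, rose by 1.00 with the segmented and 1.18 with the intact duplex, with both of its probe sets past the test. MPC1, a subunit of the mitochondrial pyruvate carrier, fell by 1.58 with the intact duplex (limma adjusted p = 0.009), while its segmented difference of -0.51 did not pass.

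PDK3, another pyruvate dehydrogenase kinase, fell by 0.97 with the intact duplex in its brightest probe set (limma adjusted p = 0.022), but only 2 of its 5 probe sets were below mock, and with their mean the difference was -0.04 (0.886). PDK1, the other kinase of the list that passed, rose by 0.75 with the intact duplex in the brightest of its 3 probe sets. It was named after its values were seen, and whether its other probe sets moved alike is not shown. The dehydrogenase subunits themselves, PDHA1, PDHB, PDHX and DLAT, stood between -0.01 and 0.27 with either duplex and did not pass.

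Cytosolic isozymes, mitochondrial carriers and some mitochondrial enzymes, such as ME2 and GOT2, made up a list of 14 genes, all measured. With the segmented duplex 1 fell, 0 rose and 13 did not pass (median 0.12), against 5.99% of all genes called. The intact duplex gave 2 falls and 1 rise, and 11 did not pass (median 0.09), against 24.9% of all genes called. ME2, a mitochondrial malic enzyme that makes pyruvate from malate, fell with both duplexes. It read log2 9.75 with the segmented and 9.73 with the intact duplex, against 11.17 and 11.11 in mock cells. The changes were -1.39 (limma adjusted p = 0.0354) and -1.41 (0.00964), and all 3 probe sets passed with each duplex. The segmented minus intact difference was 0.01 (95% interval -0.38 to 0.41, limma adjusted p = 0.977).

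SLC25A1, the mitochondrial citrate carrier, fell with the intact duplex, and the segmented array lay near mock. It read log2 8.86 with the segmented and 7.12 with the intact duplex, against 9.18 and 9.10 in mock cells. The change with the intact duplex was -2.02 (limma adjusted p = 0.00824), and the segmented difference of -0.28 did not pass (0.251). The direct difference of the duplexes, 1.73, did not pass (limma adjusted p = 0.181). SLC25A11, the oxoglutarate carrier, rose by 0.54 with the intact duplex (limma adjusted p = 0.0473), a call that was lost when arrays were centered on their medians (0.30, limma adjusted p = 0.15). IDH1, the cytosolic isocitrate dehydrogenase, did not pass, at 0.37 with the segmented and 0.49 with the intact duplex in its brighter probe set. Its dimmer probe set stood at 0.07 with the segmented and -0.19 with the intact duplex, on the other side of 0.

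Genes that make or use succinyl-CoA, or supply nucleotides to mitochondrial DNA, numbered 19, with 17 measured. Succinate-CoA ligase is known to associate with the nucleoside diphosphate kinase of the matrix, and defects of SUCLG1 or SUCLA2 deplete mitochondrial DNA in patients. With the segmented duplex 1 fell, 0 rose and 16 did not pass (median 0.18), against 5.99% of all genes called. The intact duplex gave 3 falls and 4 rises, and 10 did not pass (median 0.16), against 24.9% of all genes called. GLUD1, which makes oxoglutarate from glutamate, read log2 10.35 with the segmented and 9.55 with the intact duplex, against 11.53 and 11.58 in mock cells. It fell by 1.20 with the segmented duplex (limma adjusted p = 0.0363) and by 2.00 with the intact duplex (0.00824), with all 4 probe sets past the test each time. GLUD2 is a near-identical copy, and whether the probes tell it apart from GLUD1 was not tested.

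NME4, the nucleoside diphosphate kinase of mitochondria, had an intensity of 822 with the segmented and 299 with the intact duplex, against 1114 and 1047 in mock cells. It fell by 1.85 with the intact duplex (limma adjusted p = 0.00829), while the segmented difference of -0.39 did not pass (0.154). TWNK, the helicase of mitochondrial DNA replication, fell by 1.20 with the intact duplex, and its segmented difference of -0.56 did not pass. PCCA, a subunit of the propionyl-CoA carboxylase that leads to succinyl-CoA, rose by 1.37 with the intact duplex (limma adjusted p = 0.00983). Its segmented difference of 0.79 did not pass (0.0521), and 1 of its 4 probe sets was on the other side of 0 with each duplex. PCCB, ABAT and TK2 were the other genes that rose with the intact duplex, by 0.68, 0.83 and 0.80, and were named after their values were seen. Each value is from the brighter of 2 probe sets, and whether the other one moved alike is not shown.

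**Figure D4:**
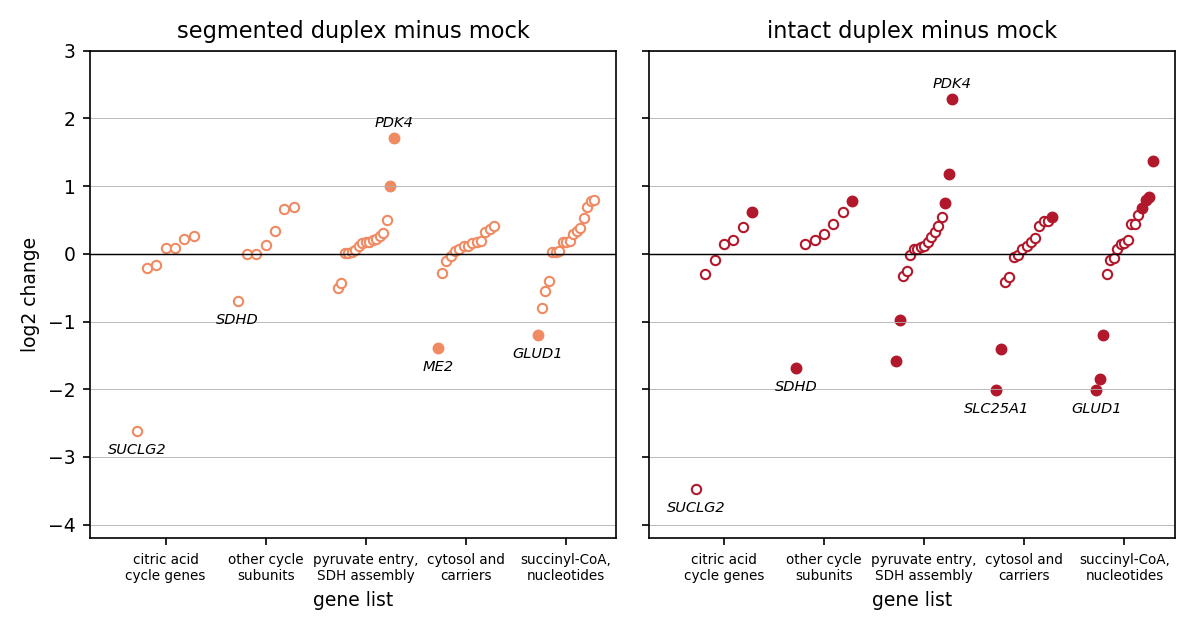
Log2 change from the mean of both mock arrays (vertical axis) with the segmented duplex (left) and the intact duplex (right), 1 point per gene, in 5 gene lists; filled points passed the limma test at an adjusted p of 0.05, open points did not, and SUCLG2, at -2.62 and -3.47, is drawn open because it carries no test. The gene furthest from 0 in each list is named.

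Over the 4 lists together, 55 of 62 genes were measured. With the segmented duplex 2 fell and 2 rose, against 5.99% of all genes called either way. With the intact duplex 8 fell and 9 rose, 17 of 55, against 24.9%. The lowest changes in the lists were -1.39 in ME2 with the segmented duplex and -2.02 in SLC25A1 with the intact duplex. They were smaller in size than those of SUCLG2, which was to be foreseen because SUCLG2 was picked for its large differences.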

How the data were processed

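Biotin-labelled cRNA from total RNA was hybridized to 4 one-color arrays, per the labels' protocols. The deposited intensity values, 1 per probe set and array, were made with RMA per the submitters' processing notes. They ran from 2.51 to 22268 and were taken as RMA values returned to the linear scale. Here they were turned into log2 with no pseudocount. Of 52377 probe sets, 35184 had 1 gene, with symbols updated through Entrez identifiers to a RefSeq table. The brightest probe set stood for each of 19798 genes. No genome build is named, so no coordinates are given. limma 3.58.1 in R 4.3.3 fitted a mean per group over all 4 arrays, with 1 residual degree of freedom and 2.89 prior degrees, and adjusted p-values by Benjamini-Hochberg over all genes at 0.05. Probe sets were fitted likewise over 35184. Members and lists were chosen with earlier results of these data known. Named were all members, up to 4 genes per list with the largest change with the intact duplex, and the 5 genes most like SUCLG2; other list genes were named after their values were seen. Alternatives were another quantile normalization, median centering, a filter on dim genes, another prior, the mean of probe sets and leaving out each mock array.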

Additional observations from a re-analysis of the deposited data

Results flagged for a closer look

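For 3 genes of the lists the duplex arrays lay on opposite sides of both mock arrays, as they did for 10.4% of all genes. ACO1, the cytosolic aconitase, stood at a log2 difference of 0.074 with the segmented and -0.41 with the intact duplex, GOT2, a mitochondrial aminotransferase, at 0.044 and -0.34, and NME6, a nucleoside diphosphate kinase relative, at 0.18 and -0.064. The direct comparison of segmented with intact did not pass for any of them (limma adjusted p = 0.254, 0.306 and 0.453 in that order).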

How the results depend on the processing

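The differences of SUCLG2 from mock stayed negative in all alternatives run. Leaving out a mock array, which allows no test, gave -2.65 to -2.59 with the segmented and -3.51 to -3.44 with the intact duplex. Another quantile normalization widened its gap to SUCLG1 to -2.53 and -3.51 and to SUCLA2 to -2.83 and -4.02. Counts of calls depended most on the prior and the filter on dim genes. With the trended and robust prior 5415 genes in place of 1186 passed with the segmented duplex, 7809 in place of 4937 with the intact duplex and 2412 in place of 0 between the duplexes. With the dimmest 40% left out, 4781 passed with the segmented duplex and 1850 between the duplexes. Median centering gave 1849 with the segmented duplex.

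Of the 6 genes other than SUCLG2, the trended prior called 2 with the segmented duplex (SUCLG1 and SDHA), 2 with the intact duplex and 1 between the duplexes. The filter gave 2 and centering 0 with the intact duplex, in place of 1. Among their probe sets, 2 passed with another quantile normalization, 0 with centering and 3 with the trended prior with the intact duplex, in place of 1, and 4 in place of 0 with the segmented duplex under that prior. In the lists of cycle subunits, pyruvate entry, cytosol and succinyl-CoA the trended prior called 4, 6, 3 and 10 genes with the segmented duplex (in place of 0, 2, 1 and 1), 5, 9, 9 and 11 with the intact duplex (in place of 2, 5, 3 and 7) and 1, 2, 3 and 5 between the duplexes (in place of 0). The filter gave 3, 5, 2 and 9 with the segmented duplex, and 4, 8 and 11 for cycle, cytosol and succinyl-CoA with the intact duplex, and 1, 3, 2 and 5 between the duplexes. For succinyl-CoA with the segmented duplex another quantile normalization gave 2, centering 3 and the mean of probe sets 2. Counts over all genes moved as well. The trended prior called 5415 of 19798 genes with the segmented duplex, 7809 with the intact duplex and 2412 between the duplexes. Under the filter 4781, 6950 and 1850 genes passed in the same order. The causes were not tested. PDK3, at 0.02 with the segmented duplex, turned to -0.065 with another quantile normalization and -0.17 with centering. Centering also turned OGDH to -0.044 with the intact duplex, SUCLA2 to -0.11 and MDH2 to -0.10 with the segmented duplex, and MDH2 to -0.092 with the intact duplex. The mean of its probe sets turned OGDH to -0.15 with either duplex. No paired analysis was possible because only the mock arrays carry replicate numbers. Dim readings such as those of CS have no detection call.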
